A study of Mus musculus with 2 samples.

Results

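The genes described here encode 5 S100 proteins (S100a4, S100a6, S100a10, S100a11 and S100b) and 2 galectins (Lgals1 and Lgals3). They were chosen by name as members of these 2 families, not by their values, and all 7 were found in both deposited count tables, among 9127 gene symbols that the tables share. The tables come from single-cell RNA sequencing of dissociated tumours of C57BL/6 mice of 2 genotypes. One is wild type (WT). The other, called the Myct1 knockout here, is Cdh5-cre Myct1 fl/fl (Cdh-cre in the sample label): floxed Myct1 alleles are recombined by a Cre expressed under the Cdh5 promoter, that of the endothelial cadherin. Each genotype had 1 library, with cells of 4 pooled mice after digestion with collagenase, dispase and DNase, and the sources used here give neither the tumour model nor any sorting nor the floxed exon. With 1 library per genotype nothing was tested: intervals are exact 95% intervals of counting error, and genotype cannot be told apart from library or batch.

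S100 proteins are small calcium-binding proteins that work as dimers and bind partners such as annexins, myosin and the ubiquitin ligase adaptor Cacybp, and S100a10 is the exception that binds annexin A2 without needing calcium. Galectins bind beta-galactosides on glycoproteins, and N-glycan branching by Mgat5 makes ligands for them. In tumours, S100a4 is known for motility of cells, Lgals1 for its secretion by hypoxic cancer cells and its effect on vessels and T cells, and Lgals3 for its abundance in macrophages and carcinoma cells, while S100b is a marker of glia, melanocytes and some dendritic cells.

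All 7 genes lie on the plus strand of GRCm38. In the GENCODE annotation, 4 of them sit in the S100 cluster of chromosome 3: S100a4 at chr3:90603771-90606045, S100a6 at chr3:90612882-90624181, S100a11 at chr3:93520488-93526287 and S100a10 at chr3:93555080-93564643. S100b is at chr10:76253853-76261159, Lgals1 at chr15:78926725-78930465 and Lgals3 at chr14:47367751-47386160. S100a4 overlaps the gene model Gm42674 on its own strand, and S100b overlaps Dip2a on the opposite strand, so reads in the shared parts of these genes could have been assigned to either. S100a11 and Lgals1 have named pseudogenes (S100a11-ps, Lgals1-ps1 and Lgals1-ps2), and the sources used here do not give how reads shared with them were treated. Their longest basic transcripts run from 498 bases (S100a4) to 1484 bases (S100b), which matters below because the ratio between the libraries varied with transcript length.

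Promoters of 5 of the 7 members were found in the RefSeq table of GRCm38.p6. The 3 shown here belong to neighbours of 1 gene cluster whose levels followed different patterns: S100a4 was highest in Krt8 and Krt18 positive cells, while S100a6 and S100a11 were also high in mural cells and fibroblasts. Each runs from 250 bases before the gene's start to 50 bases after it, on the plus strand, and capitals mark the 6-letter TATA motif TATAAA, the AP-1 motif TGANTCA and the GC box GGGCGG, each searched on both strands. The windows are chr3:90603520-90603819, chr3:93520246-93520545 and chr3:90612644-90612943 in the order of the lines.
S100a4: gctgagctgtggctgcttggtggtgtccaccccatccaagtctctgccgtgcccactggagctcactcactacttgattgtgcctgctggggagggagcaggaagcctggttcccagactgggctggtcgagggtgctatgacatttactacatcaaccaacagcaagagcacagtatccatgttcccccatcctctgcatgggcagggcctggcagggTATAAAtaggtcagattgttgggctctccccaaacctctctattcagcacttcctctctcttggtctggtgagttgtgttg
S100a11: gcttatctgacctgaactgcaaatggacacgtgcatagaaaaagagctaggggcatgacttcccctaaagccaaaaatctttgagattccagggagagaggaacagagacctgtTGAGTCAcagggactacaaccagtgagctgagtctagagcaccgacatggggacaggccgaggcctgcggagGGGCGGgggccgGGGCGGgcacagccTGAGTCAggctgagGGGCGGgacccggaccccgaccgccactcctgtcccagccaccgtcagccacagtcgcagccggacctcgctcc
S100a6: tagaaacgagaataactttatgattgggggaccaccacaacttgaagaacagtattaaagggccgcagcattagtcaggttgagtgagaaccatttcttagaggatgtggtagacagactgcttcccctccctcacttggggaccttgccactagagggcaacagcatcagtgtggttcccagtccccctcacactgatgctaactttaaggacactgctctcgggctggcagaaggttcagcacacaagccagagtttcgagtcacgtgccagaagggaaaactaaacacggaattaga
The S100a4 window held 1 TATAAA, at position -31, a motif found in 13.6% of 32851 promoter windows of this length. The S100a11 window held TGANTCA at -136 and -38, a motif in 7.81% of windows, and GGGCGG at 3 places, a motif in 35.7% of windows. The S100a6 and S100b windows held none of the 3 motifs, and the Lgals3 window held GGGCGG at 2 places. These matches describe the letters only.

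The WT library held 10880 barcodes and the knockout library 10700, with medians of 8725.5 and 12921 unique molecular identifiers (UMIs, each counted as 1 captured RNA molecule) per barcode, and 8120 and 8222 passed the filters. A cell was assigned to a class by at least 4 of 12 marker genes, with at most 0.5 times as many markers of any other class and no more than 1 UMI of Krt8 and Krt18 together. Krt8 and Krt18 positive cells had UMIs of both keratins and fewer than 4 markers of every other class. This gave 527 WT and 290 knockout endothelial cells, 93 and 19 mural cells, 2718 and 122 fibroblasts, 3677 and 6815 Krt8 and Krt18 positive cells, and 67 and 28 myeloid cells, the last used for comparison. Of markers not used for the assignment, 10 of 10 endothelial and 10 of 10 fibroblast genes were highest in their own class in both libraries, as were 8 of 9 listed mural markers in WT and 5 of 6 in the knockout. The Krt8 and Krt18 positive cells are given no cell type name, because 10 epithelial genes such as Epcam, Cdh1 and Krt19 summed to only 66.5 CPM in WT and 37.8 CPM in the knockout, where CPM is UMIs of a gene per 1000000 UMIs of the class. Myct1 was at 248 CPM in WT endothelial cells and at 0 to 0.216 in WT mural cells, fibroblasts and keratin positive cells; its level in the knockout library was not analysed here. The libraries shared 218 barcodes, 69 of them assigned to a class in both, and leaving these out changed no call between the libraries. Below, a level is the CPM of the counts summed over the cells of a class in 1 library, so fewer cells of a subtype and less RNA per cell cannot be told apart in it.

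S100a4, the metastasis-associated S100 protein, had the widest range across classes. Its level was 2935 CPM (2921 to 2949) in WT and 3268 CPM (3258 to 3279) in knockout Krt8 and Krt18 positive cells. It was 409 and 696 CPM in mural cells, 177 and 464 CPM in fibroblasts, and 40.5 and 83.6 CPM in endothelial cells. The order was the same in both libraries, with no overlap of counting intervals between neighbours: keratin positive cells were 72.5-fold above endothelial cells in WT and 39.1-fold above them in the knockout. Keratin positive cells held 81.2% of all S100a4 UMIs of the WT library and 91.6% of those of the knockout. Among myeloid cells S100a4 was at 1214 CPM in WT and 456 CPM in the knockout, from 199 and 23 UMIs.

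S100a6, also called calcyclin, was abundant in every class of the rule. WT levels were 9599 CPM in mural cells, 7895 in keratin positive cells, 6530 in fibroblasts and 2788 in endothelial cells. Knockout levels were 9874, 10194, 7837 and 3798 CPM in the same classes. Endothelial cells were the lowest of the 4 in both libraries, while in the knockout the intervals of mural and keratin positive cells overlapped. At an equal depth of 3000 UMIs per cell, 98.2% of WT and 99.6% of knockout endothelial cells still held an S100a6 UMI, with medians of 7 and 10 UMIs.

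S100a11, an annexin A1 partner, was highest in mural cells, at 1628 CPM in WT and 2300 in the knockout. Fibroblasts had 885 and 1139 CPM, keratin positive cells 856 and 1079, and endothelial cells 682 and 976. The classes thus differed little for this gene, with mural cells 2.39-fold above endothelial cells in WT and 2.36-fold in the knockout. S100a6 and S100a11 were the only members of the 7 that were highest in WT mural cells.

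S100a10, the partner of annexin A2 in plasminogen binding at the cell surface, had a different order. It was at 2078 CPM in WT and 2755 in knockout keratin positive cells, then 458 and 883 CPM in endothelial cells, 366 and 515 in fibroblasts, and 284 and 282 in mural cells. Endothelial cells were therefore second of the 4 classes and mural cells last, in both libraries, without overlap of intervals between neighbours. Keratin positive cells were 4.54-fold above endothelial cells in WT and 3.12-fold in the knockout.

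S100b was near the floor of detection. It was at 5.31 CPM in WT (320 UMIs) and 5.35 in knockout keratin positive cells (663 UMIs), and at 4.16 CPM (103 UMIs) and 6.97 CPM (6 UMIs) in fibroblasts, whose intervals overlapped with those of keratin positive cells. Endothelial cells had 1 UMI in WT and 2 in the knockout. In mural and myeloid cells there was none, which allows a level of up to 5.22 CPM in WT and 30.3 CPM in knockout mural cells when 3 counts are taken as the limit. The share of cells with a UMI was 5.36% of WT and 7.23% of knockout keratin positive cells, at median depths of 16133 and 16875 UMIs.

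Lgals1, galectin-1, was at 3650 CPM in WT and 4530 in knockout keratin positive cells. Mural cells had 3097 and 4872 CPM, fibroblasts 2445 and 5099, and endothelial cells 458 and 1002. Keratin positive cells were the highest in WT, and fibroblasts in the knockout, where the interval of mural cells overlapped with those of both neighbours in the order. Endothelial cells were the lowest in each library, 7.97-fold below keratin positive cells in WT and 4.52-fold below them in the knockout.

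Lgals3, galectin-3, was the member whose endothelial place in the order changed. WT levels were 702 CPM in keratin positive cells, 272 in endothelial cells, 158 in fibroblasts and 115 in mural cells. Knockout levels were 804, 108, 243 and 70.6 CPM, so that fibroblasts stood above endothelial cells. Lgals3 was 2.58-fold higher in keratin positive than in endothelial cells in WT and 7.46-fold higher in the knockout. Myeloid cells, in which galectin-3 is a textbook marker of macrophages, had 897 CPM (758 to 1054) in WT and 654 CPM (450 to 918) in the knockout, from cells with a median of only 898 and 649.5 UMIs.

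**Figure D1:**
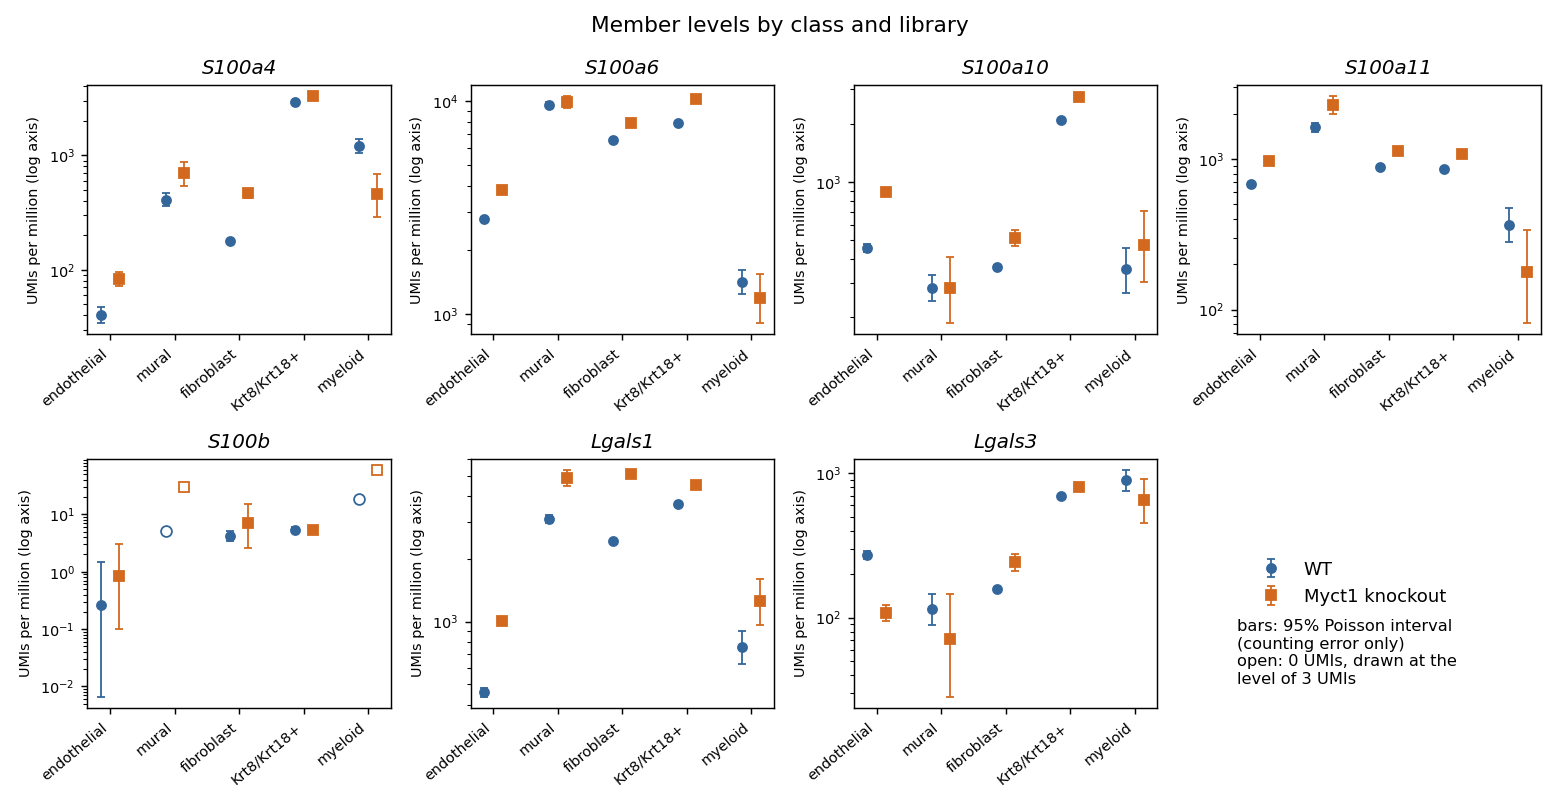
Levels of the 7 genes in CPM (log axis) for each class, with WT as circles and the Myct1 knockout as squares; bars are 95% Poisson intervals of counting error, and open symbols mark 0 UMIs drawn at the level of 3 UMIs. S100a4 runs from 40.5 CPM in WT endothelial to 3268 CPM in knockout Krt8 and Krt18 positive cells, while S100a11 stays between 682 and 2300 CPM outside myeloid cells.

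Free RNA from burst cells can enter every droplet, so the low levels were set against it. The 5 genes most restricted to Krt8 and Krt18 positive cells, chosen for each library in the other one, were Sox9, Tnnt2, Lgals7 and Prkg2 with Areg for WT and Hmga2 for the knockout. In endothelial cells these genes stood at 0.602 to 2.19% of their keratin positive level in WT, with a median of 1.34%, and at 1.14 to 2.79% in the knockout, with a median of 2.19%. S100a4 in endothelial cells was at 1.38% and 2.56% of its keratin positive level, inside that range in both libraries. The 5-gene medians times the keratin positive level of S100a4 come to 39.5 CPM in WT and 71.7 CPM in the knockout, beside measured levels of 40.5 and 83.6 CPM. The S100a4 UMIs were not evenly spread, however: 26 of the 527 WT endothelial cells held 97 of 154, and 14 of the 290 knockout cells held 125 of 200. In WT, S100a4 was at 210 CPM in the 27 endothelial cells with cycling genes and at 30.9 CPM in the 432 without, and in the knockout at 111 and 64.5 CPM in 48 and 181 cells. The part of free RNA in the endothelial S100a4 level was not tested beyond these values.

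The other endothelial levels were above this range. S100a11 was at 79.7% of its keratin positive level in WT and 90.5% in the knockout, S100a6 at 35.3% and 37.3%, S100a10 at 22.0% and 32.1%, Lgals1 at 12.6% and 22.1%, and Lgals3 at 38.7% and 13.4%. For Lgals1, the highest of the 5 genes would account for up to 80.0 of 458 CPM in WT and up to 126 of 1002 CPM in the knockout. For Lgals3 it would account for up to 15.4 of 272 CPM and 22.4 of 108 CPM. In fibroblasts, S100a4 was at 6.02% of its keratin positive level in WT and 14.2% in the knockout, against ranges of 0.933 to 5.26% and 0.612 to 9.68% for the 5 genes, so it lay close above them. All 7 members were above the range in fibroblasts of both libraries, and 6 of 7 in mural cells, S100b having no UMI there.

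A broader estimate with 20 restricted genes per source class gave much larger values. For genes of keratin positive cells in WT endothelial cells, the median was 7.73% and the highest gene 134%. For the knockout, the 20 genes included some that all classes use, such as Npm1, which was not among those for WT. The estimate set S100a4 at 560% of its own endothelial level in WT and at 667% in the knockout. It is therefore given here only as an upper limit. Each member was held only against genes restricted to the class where that member was highest. By that rule a restricted gene could have reached 4 of 7 members in WT endothelial cells (S100a4, S100a10, S100b and Lgals1). In knockout endothelial cells it could have reached 4 (S100a4, S100a6, S100a10 and Lgals3). The other members were held against genes of other classes than keratin positive cells. Below the highest keratin positive gene in WT (134%) were also S100a11 (79.7%), Lgals3 (38.7%) and S100a6 (35.3%). In the knockout that gene was at 44.1%, with Lgals1 (22.1%) and S100b (15.6%) also below it and S100a11 (90.5%) above. The 5-gene version was chosen after these values were seen.

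**Figure D2:**
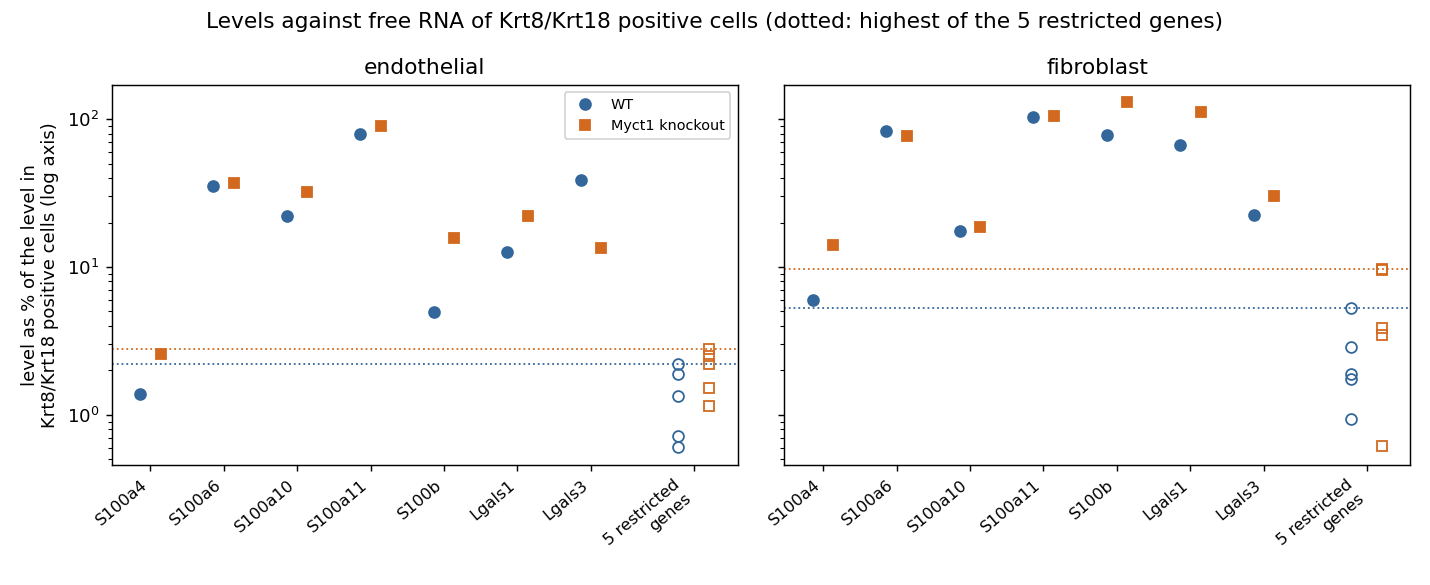
Level of each member in endothelial cells and fibroblasts as a percentage of its level in Krt8 and Krt18 positive cells of the same library (log axis), beside the 5 restricted genes as open symbols; dotted lines mark the highest of the 5 in each library. Endothelial S100a4, at 1.38% in WT and 2.56% in the knockout, is the only member below its dotted line.

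The shares of cells at equal depth followed the levels. After thinning each cell to 3000 UMIs, which left out 38 WT and 25 knockout endothelial cells, 6.95% of WT (4.86 to 9.58%) and 12.5% of knockout endothelial cells (8.73 to 17.0%) held an S100a4 UMI, against 15.7% and 26.9% without thinning. In keratin positive cells the thinned shares were 93.2% and 96.9%. For Lgals3 the thinned endothelial shares were 44.0% (39.5 to 48.5%) in WT and 18.9% (14.3 to 24.1%) in the knockout, against 56.2% and 32.8% without thinning. For Lgals1 they were 54.2% and 78.5%, and for S100a10 63.8% and 85.7%, so both were found in more knockout than WT endothelial cells.

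The comparison of the libraries within endothelial cells asks how the members differ where Myct1 is targeted. A gene was called different where the ratio was at least 1.5-fold, the counting interval excluded no difference and both libraries together held at least 20 UMIs. Among the 6 members with that many UMIs, Lgals1 (log2 ratio of knockout over WT 1.13, 1.04 to 1.22), S100a4 (1.05, 0.74 to 1.36) and S100a10 (0.95, 0.86 to 1.04) were called higher in the knockout, S100a4 at levels inside the range of the 5 free RNA genes. Lgals3 was called lower (-1.33, -1.54 to -1.14), 2.52-fold. S100a6 (0.45) and S100a11 (0.52) were under 1.5-fold, and S100b had 3 UMIs in all.

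These calls have to be read against all genes. In endothelial cells 10.2% of 8139 genes were called higher and 34.1% lower, and the median of their log2 ratios was -0.34. Among 528 genes with transcripts under 1000 bases, which 5 of the 7 members have, 35% were called higher and 3.79% lower, and their median was 0.45. The 3 higher members were all among the 5 with such transcripts, beside 35% of short genes as a group. A count over 5 genes was not tested against that share. Relative to the 200 genes of most like length, the ratio was 0.66 for Lgals1, 0.69 for S100a4, 0.50 for S100a10, 0.16 for S100a11 and -0.0025 for S100a6, so S100a10 was no longer called. Lgals3, with a transcript of 1419 bases, was at -1.63 relative to such genes. Cell division moved with the endothelial comparison: 8 of 8 cycling genes were higher in knockout endothelial cells, the median of their log2 ratios being 1.62. Among cells without a UMI of these 8 genes, 432 in WT and 181 in the knockout at equal depth, the ratios were 1.08 for Lgals1, 1.06 for S100a4, 1.03 for S100a10 and -1.74 for Lgals3. In all endothelial cells thinned to the same depth they were 1.04, 0.86, 0.995 and -1.71 in this order.

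In fibroblasts, 3 of 7 members were called higher in the knockout and 0 lower, where 13.6% of 8696 genes were called higher and 15.1% lower, and 39.1% and 4.84% of 558 genes under 1000 bases. S100a4 had a log2 ratio of 1.39 (1.24 to 1.54), Lgals1 of 1.06 (1.02 to 1.10) and Lgals3 of 0.62 (0.42 to 0.82). S100a6 (0.26), S100a10 (0.49) and S100a11 (0.36) were under 1.5-fold, and the interval of S100b (0.75, -0.73 to 1.92) included no difference. S100a10 passed 1.5-fold with each cell given equal weight (1.39) and within some of the fibroblast sets described below. Lgals3 was not called after subtraction of the 5-gene free RNA medians (0.55) or without the 1 knockout fibroblast that held 49 of its 209 UMIs (0.26). Without the cell richest in it, S100a4 was at 1.02 and Lgals1 at 1.00. Cell division moved with this comparison too: 8 of 8 cycling genes were higher in knockout fibroblasts, with 1.75 as the median of their log2 ratios. In WT the 56 cycling fibroblasts stood above the 2310 without such UMIs by 1.09 for Lgals1 and 0.62 for S100a4. Their median depth before thinning was 14844 against 9203 UMIs. Among fibroblasts without a UMI of these genes, 2310 in WT and 61 in the knockout at equal depth, the ratio of knockout over WT was 1.19 for Lgals1, 0.66 for S100a4, 0.64 for S100a11 and 0.61 for Lgals3. In all fibroblasts thinned to the same depth these ratios were 1.19, 1.18, 0.59 and 1.01. Relative to genes of like length S100a4 alone was called, at 0.92. Its UMIs sat in few cells: 6 of the 122 knockout fibroblasts held 74.9% of them, where 135 of the 2718 WT fibroblasts, also 5% of the cells, held 42.7%. The share of fibroblasts with an S100a4 UMI was 47.7% in WT and 36.9% in the knockout at median depths of 8715.5 and 5869.5 UMIs. Thinned to 3000 UMIs, which left out 255 WT and 54 knockout cells, it was 28.1% (26.3 to 29.9%) and 30.9% (20.2 to 43.3%). The interval of the knockout share spans that of WT. Without the 5% of cells with the most UMIs of any gene, the S100a4 ratio was 0.62. Lgals7, a galectin with 1272 CPM in knockout keratin positive cells, was at 123 CPM in knockout and 15.7 CPM in WT fibroblasts, and the part of keratin positive RNA in these ratios was not tested beyond the free RNA range above.

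In Krt8 and Krt18 positive cells, which carry most UMIs of all 7 members, 0 of 7 were called in either direction. The log2 ratios ran from 0.01 for S100b to 0.41 for S100a10, with S100a6 at 0.37, S100a11 at 0.33, Lgals1 at 0.31, Lgals3 at 0.20 and S100a4 at 0.16. In this class 5.09% of 8800 genes were called higher and 17.7% lower, and 17.2% and 6.72% of 580 genes under 1000 bases. Relative to genes of like length the ratios ran from -0.22 for S100b to 0.12 for S100a11. With other scalings, S100a6 and S100a10 or these and S100a11 passed 1.5-fold. Those scalings raised the ratios of all genes, and the share of all genes called was not computed for them. Mural cells were not compared, because the knockout library held 19 of them.

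**Figure D3:**
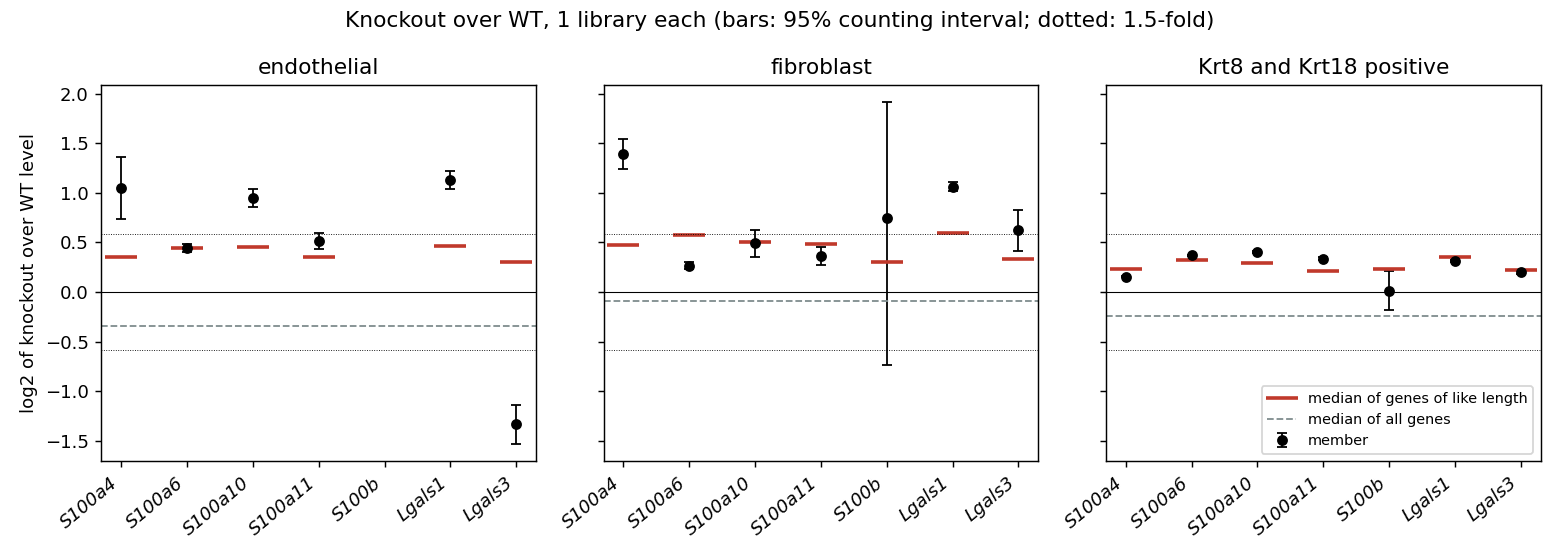
Log2 ratio of knockout over WT level for each member in endothelial cells, fibroblasts and Krt8 and Krt18 positive cells, with 95% counting intervals; red dashes are medians of genes of like transcript length, the dashed line is the median of all genes and dotted lines mark 1.5-fold. Endothelial Lgals3, at -1.33, is the member farthest below its dash, and keratin positive cells show all members within 1.5-fold.

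Endothelial cells of tumours are not uniform, and the libraries held different kinds. With 3 lists of 8 genes chosen after the data had been seen, 140 WT and 156 knockout endothelial cells fell to a list with Esm1 and Apln (known from tip cells), 66 and 31 to a list with Ackr1 and Selp (known from venules), 216 and 50 to a list with Cd36 and Rbp7 (known from capillaries), and 105 and 53 to none. WT Lgals3 was highest in the Cd36 and Rbp7 cells, at 435 CPM, against 121 CPM in the Esm1 and Apln cells, 182 CPM in the Ackr1 and Selp cells and 283 CPM in the rest. In the knockout these levels were 75.4, 92.3, 385 and 62.0 CPM. The ratio was -2.53 in the Cd36 and Rbp7 cells (-3.10 to -2.01) and -2.19 in the unassigned cells, but -0.40 in the Esm1 and Apln cells and 1.08 (0.59 to 1.56) in the Ackr1 and Selp cells. That last value rests on 1 cell: of 73 Lgals3 UMIs in the 31 knockout cells of this set, 48 were in a single cell, and without it the level was 146 CPM and the ratio -0.32 (-1.03 to 0.35). The same cell held 48 of the 258 Lgals3 UMIs of all knockout endothelial cells, whose ratio was -1.62 without it. With the 4 sets given equal weight it was -0.73. Lgals3 was thus called lower in 2 of the 4 sets, the Esm1 and Apln cells (-0.74 to -0.05) being under 1.5-fold.

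Lgals1 and S100a10 were higher in the knockout in each of the 4 sets. Lgals1 was at 594 and 1015 CPM in the Esm1 and Apln cells, 416 and 1017 CPM in the Ackr1 and Selp cells, 352 and 1072 CPM in the Cd36 and Rbp7 cells and 439 and 871 CPM in the rest, with log2 ratios of 0.77 to 1.61. S100a10 had ratios of 0.66 to 1.49, the largest again in the Cd36 and Rbp7 cells, where it was at 413 CPM in WT and 1157 in the knockout. S100a4 was at 60.0 and 68.4 CPM in the Esm1 and Apln cells (0.19, interval from -0.25 to 0.64) and was called higher in the other sets, from 9 to 51 WT UMIs each. Its ratio was 2.74 in the Ackr1 and Selp cells (1.61 to 4.00) and 1.37 in the Cd36 and Rbp7 cells (lower bound 0.73). In the unassigned cells the ratio was 2.16 (1.25 to 3.13). In the Ackr1 and Selp set, 1 knockout cell held 23 of 28 S100a4 UMIs. Without that cell the knockout level was 29.2 CPM, beside 22.2 CPM in WT. The richest knockout cell held 12 of 39 UMIs in the Cd36 and Rbp7 set and 16 of 36 in the unassigned set. Without it the levels were 68.9 and 55.5 CPM, beside 36.7 and 21.8 CPM in WT.

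**Figure D4:**
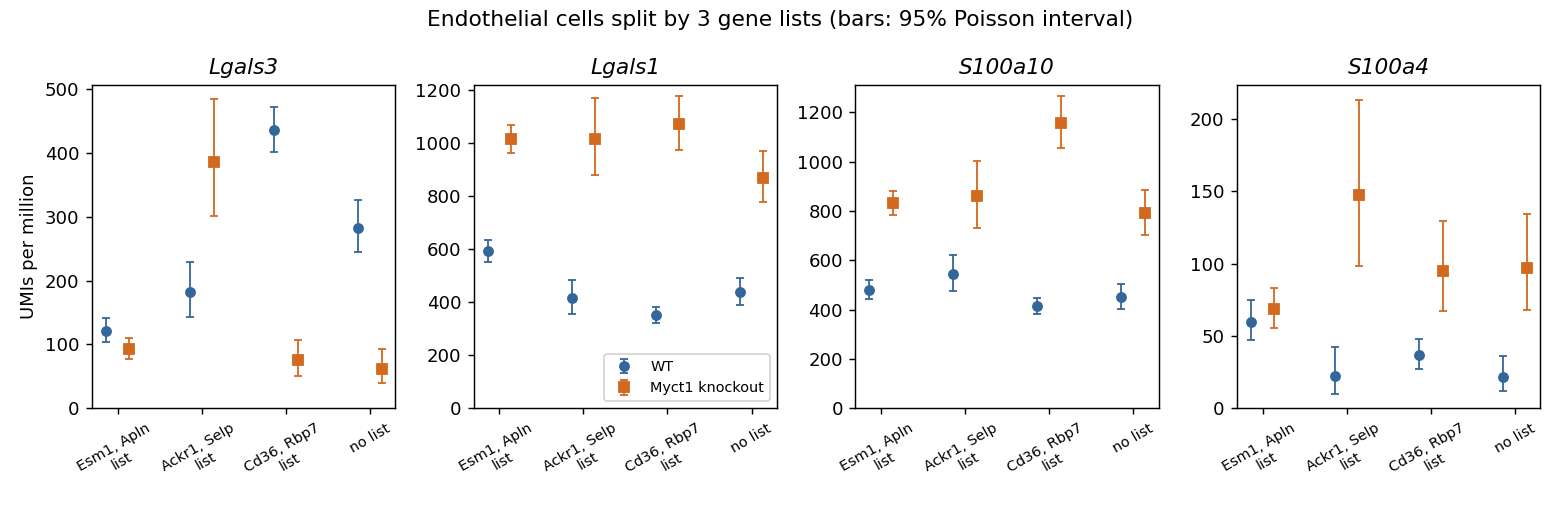
Levels of Lgals3, Lgals1, S100a10 and S100a4 in CPM (axes from 0) in endothelial cells split by 3 gene lists, WT as circles and knockout as squares, with 95% Poisson intervals. Lgals3 is at 435 CPM in WT and 75.4 CPM in knockout Cd36 and Rbp7 cells and at 182 and 385 CPM in Ackr1 and Selp cells, where 1 knockout cell held 48 of 73 UMIs, while Lgals1 and S100a10 are higher in the knockout in all 4 sets.

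Fibroblasts were split in the same way. By lists with Pi16 and Dpp4 (known from adventitial fibroblasts) and with Acta2 and Postn (known from myofibroblasts), 2085 WT but 46 knockout cells fell to the first and 495 and 48 to the second. Lgals1 was at 1370 CPM in WT and 1712 in the knockout in the first set, and at 5227 and 6034 CPM in the second. Its ratios within the sets were 0.32 and 0.21, against 1.06 over all fibroblasts. The set with the higher Lgals1 level held 495 of 2718 WT and 48 of 122 knockout fibroblasts. The part of this mix in the ratio over all fibroblasts was not tested. S100a4 had ratios of 0.94 and 1.25 within the sets. The knockout cell richest in S100a4 held 22 of 57 UMIs in the first set and 74 of 209 in the second. Without that cell the knockout levels were 227 and 235 CPM, beside 182 and 144 CPM in WT. The cells of neither set were 138 in WT and 28 in the knockout. In them Lgals1 was at 2725 and 4907 CPM (0.85, 0.70 to 1.00), S100a4 at 310 and 1529 CPM and S100a6 at 6898 and 14079 CPM. These knockout levels leaned on single cells. The cell richest in each gene held 233 of 427 Lgals1 UMIs, 101 of 133 S100a4 UMIs and 753 of 1225 S100a6 UMIs. Without that cell the knockout levels were 3271, 539 and 7957 CPM. S100a10 was called higher in the first set (1.04) and in the cells of neither (0.89), and was at 0.80 with the sets given equal weight. In the cells of neither, 1 knockout cell held 28 of its 66 UMIs. Without that cell the knockout level was 641 CPM, beside 408 CPM in WT.

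Within Krt8 and Krt18 positive cells S100a4, S100a6, S100a11 and Lgals1 varied together. Their 6 pairs had Spearman correlations of 0.46 to 0.70 in WT and 0.34 to 0.63 in the knockout. Across cells thinned to 3000 UMIs, the value was 0.70 in WT (3554 cells) and 0.63 in the knockout (6710 cells) for S100a6 and Lgals1, 0.69 and 0.59 for S100a4 and S100a6, and 0.64 and 0.54 for S100a4 and Lgals1. The 5 pairs with Lgals3 ran from 0.03 to 0.21 in WT and from 0.06 to 0.28 in the knockout, with S100a4 and Lgals3 lowest and S100a10 and Lgals3 highest in both. S100a10 lay between, at 0.36 and 0.17 with S100a4 and 0.32 and 0.24 with Lgals1; in the knockout both were below its value with Lgals3. The cells of a library share its preparation and its free RNA, so these values describe the libraries.

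Known states were compared next. Cells with UMIs of at least 3 of 8 genes induced by hypoxia, such as Car9 and Ndrg1 (1547 WT and 2029 knockout cells), were set against cells with none (563 and 1332), after thinning. S100a4 was at 1573 CPM in the first and 5616 CPM in the second in WT, and at 2432 and 4318 CPM in the knockout. Lgals1 was at 2209 and 6922 CPM in WT and 3236 and 6201 CPM in the knockout. S100a6 was at 5208 and 14365 CPM in WT and 7834 and 13792 CPM in the knockout. The log2 ratios of hypoxia-positive over hypoxia-negative cells in WT were -1.84 for S100a4, -1.65 for Lgals1, -1.46 for S100a6 and -1.17 for S100a11, and in the knockout -0.83, -0.94, -0.82 and -0.57. S100a10 was at -0.43 and -0.06, and Lgals3 at 0.15 and 0.29, slightly higher in the hypoxia-positive cells of both libraries. Median depth before thinning was 17278 against 10406 UMIs in WT and 17032 against 16661 in the knockout, so depth moved with this split in WT and hardly in the knockout, where the directions were the same.

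A list of 8 stress response genes such as Ddit3 and Trib3 gave the same directions, with -1.31 in WT and -0.59 in the knockout for S100a4, -1.27 and -0.52 for Lgals1, and 0.18 and 0.12 for Lgals3. Median depth before thinning was 17491 against 7723 UMIs in WT and 17296 against 15756 in the knockout, so depth moved with this split as well. Cells with interferon-induced genes such as Ifit1 and Isg15 (122 WT and 741 knockout cells) had lower levels of the 6 members other than S100b, from -0.82 to -0.25 in WT and from -0.70 to -0.24 in the knockout. Cycling cells, with at least 2 of the 8 cycling genes (366 WT and 854 knockout cells), had higher S100a4 (0.97 and 0.33), S100a6 (0.64 and 0.27), S100a11 (0.53 and 0.37) and Lgals1 (1.03 and 0.60) than cells with none. Lgals3 was lower in the cycling cells, at -0.21 and -0.40. Depth moved with this split too. Median depth before thinning was 20325 against 16325.5 UMIs in WT and 21369 against 16391.5 in the knockout. The same split of endothelial cells held 27 cycling WT and 48 cycling knockout cells. Lgals3 was at 74.1 CPM in cycling and 356 CPM in other WT cells, and at 76.4 and 107 CPM in the knockout. Lgals1 was at 1062 and 360 CPM in WT and 813 and 762 CPM in the knockout. Median endothelial depth was 10171 against 6362 UMIs in WT and 10655.5 against 6950 in the knockout.

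**Figure D5:**
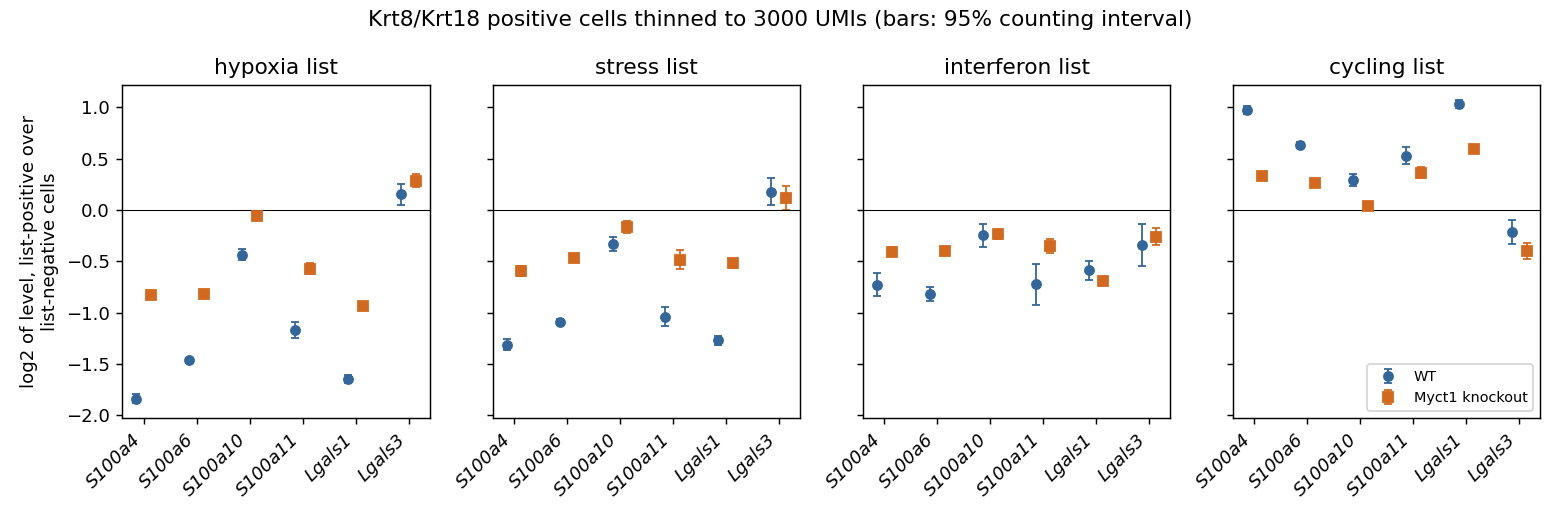
Log2 ratio of the level in Krt8 and Krt18 positive cells that hold genes of a list over cells that hold none, for 4 lists, after thinning to 3000 UMIs; WT as circles, knockout as squares, bars are 95% counting intervals. S100a4 is at -1.84 (WT) and -0.83 (knockout) for the hypoxia list and at 0.97 and 0.33 for the cycling list, and Lgals3 takes the other direction in both.

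The likeness of each member to other genes was measured by Pearson's r over 9 sums of class and library with at least 20 cells (log2 of CPM plus 10), among 3353 genes. The most like S100a4 were the mitochondrial chaperone gene Hspd1 (0.98), Mif, a cytokine gene (0.95), and Emp3 (0.93). For S100a6 they were Gpx8, Rbbp7 and Klhdc2 (0.97, 0.96 and 0.95), for S100a10 Rps27a, Npm1 and Denr (0.99, 0.96 and 0.96), and for S100a11 Hmgn3, Rab18 and Slc25a4 (0.94 each). Lgals1 was most like Inhba, Sdc1 and Nupr1 (0.94, 0.92 and 0.91), Lgals3 most like Use1 and Kcnn4 (0.97 and 0.92), and S100b most like Ak1, Col7a1 and Serf1 (0.96, 0.94 and 0.94). Among the members, S100a6 and S100a11 were most alike (0.91), and S100a11 and Lgals3 least (-0.57). The sums share libraries and depth, and with 9 of them among 3353 genes high values of r are common.

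Of 12 further S100 genes 7 were in both tables; S100a8, a granulocyte and monocyte gene, was at 1397 CPM in WT myeloid cells from 229 UMIs and at no more than 1.25 CPM in any other class; knockout myeloid cells had 0 of its UMIs, which allows up to 59.5 CPM. S100a13 was at 374 CPM in WT and 406 CPM in knockout endothelial cells, and S100a16 at 333 and 305 CPM. S100pbp, which encodes a binding protein of S100P, was the 1 of 4 measured genes of this list called lower in endothelial cells (-1.42, against 34.1% of all genes), and S100a1 the 1 of 5 called higher in fibroblasts (0.98, against 13.6% of all genes). Of 8 further galectin genes 4 were in both tables. Lgals7 stood out by class, at 899 CPM in WT and 1272 CPM in knockout keratin positive cells against 12.1 and 19.2 CPM in endothelial cells, and Lgals9 was an endothelial and fibroblast galectin, at 243 and 187 CPM in endothelial cells and 4.13 and 5.06 CPM in keratin positive cells. Of these 4 galectin genes 1 was called higher and 1 lower in knockout endothelial cells, where 10.2% and 34.1% of all genes were: Lgals7 (0.67, 0.05 to 1.29) and Lgalsl, the galectin-like gene (-0.71, -1.44 to -0.02). In fibroblasts, with 13.6% and 15.1% of all genes called, Lgals7 was called higher (2.97, 2.65 to 3.28) and Lgals9 lower, from 126 to 77.8 CPM (-0.69, -1.06 to -0.34). Lgals7 is 1 of the 5 restricted genes that set the free RNA range. It stood at 1.34% (WT) and 1.51% (knockout) of its keratin positive level in endothelial cells, and at 1.75% and 9.68% in fibroblasts. The part of free RNA in its ratios was not tested.

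Partners and targets of S100 proteins did not all move in 1 direction. For these genes and the other lists, ratios were not set against genes of like transcript length, with which the ratios between libraries varied. Of 13 measured, 5 were called higher and 5 lower in knockout endothelial cells, where 10.2% and 34.1% of all genes were, and the median of the 13 log2 ratios was 0.57 against -0.34 for all genes. Cacybp, the calcyclin-binding protein, was at 45.7 CPM in WT and 133 CPM in the knockout (1.53), and Anxa5 at 318 and 543 CPM (0.77). Myh9, the non-muscle myosin heavy chain that S100a4 binds, was at 596 and 283 CPM (-1.08), and the scaffold gene Iqgap1 at 334 and 163 CPM (-1.04). In fibroblasts, with 13.6% and 15.1% of all genes called, 5 were called higher and 1 lower, among the higher Cacybp (1.13), Tpm1 (1.07), Plaur, the urokinase receptor gene (1.05), and Anxa5 (0.74). In keratin positive cells, with 5.09% and 17.7% of all genes called, 2 were called higher, Cacybp (0.75) and Anxa1 (0.66), and Myh9 was called lower (-0.61).

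Galectin ligands and the enzymes of N-glycan branching had no higher member in knockout endothelial cells. Of 14 measured, 0 were called higher and 6 lower, where 10.2% and 34.1% of all genes were, and their median was -0.32 against -0.34 for all genes, so the list lay near the background. St6gal1, whose sialylation masks galectin ligands, was at 18.7 CPM in WT and 4.60 CPM in the knockout (-2.02). Nrp1, a glycosylated receptor of VEGF, was at 626 and 292 CPM (-1.10), the branching enzyme gene Mgat5 at 93.6 and 46.4 CPM (-1.01) and Mcam at 1160 and 649 CPM (-0.84). In fibroblasts, with 13.6% and 15.1% of all genes called, 2 of 15 were called higher, Cspg4 (2.49) and Mgat5 (1.44), and B4galt1 was called lower (-0.80). In keratin positive cells, with 5.09% and 17.7% of all genes called, 0 of 15 were called in either direction, and Cd44 was at 906 and 691 CPM (-0.39).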

How the data were processed

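Both libraries were made with the 10x Chromium 3' kit, per the labels. The authors deposited 1 table of whole UMI counts per library, not normalised, for which the submitters' processing notes name Cell Ranger 2.1.1 and the build mm10; the sources used here give no annotation release. A 3' count does not scale with transcript length. The named genes are the 7 members, up to 4 per family list and class with the largest ratios by the interval bound nearest 0, and the 3 genes most like each member, of which 1 is not reported here; a few further levels of listed genes were named after their values were seen. The members and all lists were chosen with earlier results of these data known.

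Barcodes with fewer than 200 genes or over 10% mitochondrial UMIs were left out. No doublet caller was run: cells with markers of more than 1 class (429 WT, 162 knockout) and cells of none (609 and 786) were left out. Counts were summed per class and library. Levels carry Poisson, ratios conditional binomial and shares Clopper-Pearson 95% intervals; 3 counts were the limit for 0. No p-value was computed. Thinning drew 3000 UMIs per cell (seed 1). Methods were tested on simulated data. Transcript lengths and positions came from GENCODE M21 (GRCm38). Scripts used matplotlib 3.10.9, pandas 2.3.3, scipy 1.17.1 and numpy 2.4.6 under Python 3.11.15. Alternatives covered the gate, mitochondrial limit, scaling, length, depth, free RNA, cell weights and, added after seeing the data, shared barcodes, cell subsets, cycling cells, the cell richest in a gene and 5 restricted genes.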

Additional observations from a re-analysis of the deposited data

Results flagged for a closer look

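Lgals3 had ratios of opposite sign in different classes of the same libraries: its log2 ratio of knockout over WT was -1.33 in endothelial cells, 0.62 in fibroblasts and 0.20 in Krt8 and Krt18 positive cells. In fibroblasts it was 0.26 without 1 knockout cell that held 49 of its 209 UMIs, and 0.55 after subtraction of free RNA, neither past 1.5-fold. The difference between the classes was not tested, since each genotype had 1 library.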

How the results depend on the processing

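No paired analysis was possible because each genotype had 1 library. Calls between libraries depended on scaling. The share of all genes called was computed for the main setting only, so counts under other settings have no background here. In endothelial cells, 3 members were called higher and 1 lower. Trimmed mean of M values and median of ratios scaling each gave 5 higher. They removed shifts of -0.32 and -0.33 from the log2 ratios of all genes, not of the members alone. Subtracting the 20-gene free RNA estimate gave 1 higher and 0 lower. It left S100a4 below 0 in both libraries, and Lgals3 at 272 CPM in WT and below 0 in the knockout, so neither had a ratio. In fibroblasts it gave 1 lower, with Lgals3 turning to -0.95, and S100a4 again had no ratio. That estimate exceeds some measured levels by construction. In fibroblasts thinned to 3000 UMIs 4 were called higher instead of 3. Among the thinned fibroblasts without cycling UMIs 5 passed 1.5-fold, S100b from 2 UMIs. Without the knockout cell richest in each gene 2 were called. Relative to genes of like length, 1 fibroblast member (S100a4) was called higher instead of 3. In keratin positive cells, 2 were called higher with trimmed mean scaling, 3 with median of ratios scaling and 1 (S100b) without cycling cells, instead of 0.

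Within the Esm1 and Apln endothelial cells 0 were lower. Within the Ackr1 and Selp cells 5 were higher and 0 lower. Among those 5, Lgals3 was at 1.08 (-0.32 without 1 cell), and 1 cell held 23 of the 28 knockout S100a4 UMIs. Within the Cd36 and Rbp7 cells 5 were higher. The share of all genes called was not computed within these sets, so the counts cannot be read as a result about the members. Lgals3 was at -0.34 in fibroblasts of neither list. With 10 restricted genes 2 members were over the free RNA limit in knockout fibroblasts instead of 4, and with 40 genes 1 instead of 0 in keratin positive cells of each library. Under a stricter gate 2 members instead of 1 were highest in knockout mural cells and 1 instead of 2 in knockout fibroblasts. Thinning to 1500 UMIs left 2 instead of 4 members in over 50% of WT endothelial cells. The cause of these moves was not tested. The knockout library held 122 fibroblasts, 19 mural and 28 myeloid cells, which limits precision there.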
